A study of Mus musculus with 3 samples.

Results

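The early growth response (Egr) transcription factors Egr1, Egr2, Egr3 and Egr4 were followed across the cell classes of the mouse nucleus accumbens. The 4 genes were taken by symbol from the 28001 features of the deposited count table, and all 4 were present. Of these, Egr1 (8037 UMIs in 3407 of the retained cells), Egr4 (1886 UMIs in 1196 cells) and Egr2 (260 UMIs in 214 cells) could be described, whereas Egr3 had 2 UMIs in all. UMIs are random tags added before amplification, so each UMI stands for 1 captured RNA molecule. Their identifiers in the table are ENSMUSG00000038418 (Egr1), ENSMUSG00000037868 (Egr2), ENSMUSG00000033730 (Egr3) and ENSMUSG00000071341 (Egr4).

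All 3 libraries belong to 1 group: Thy1::ChR2 mice whose nucleus accumbens was labelled with FLiCRE while channelrhodopsin (ChR2) was stimulated with light; the tissue came from a coronal brain slice. Thy1::ChR2 animals carry the light-gated channel under the Thy1 promoter, which is active in subsets of projection neurons, and FLiCRE records a calcium rise that coincides with light as a reporter RNA, taken here to be the mCherry feature. The labels give no age or sex, and no unstimulated animals are part of the group, so a level of an Egr gene cannot be set against a resting level here. Cell classes were therefore compared with each other, within library. The libraries are numbered by the suffix of the cell barcodes, which the labels do not tie to a replicate. Nor do the labels say that the replicates are separate animals. The p-values set the difference between classes within a library against its spread over these 3 libraries, or 2 of them in some comparisons. That spread may be technical. With so few libraries the fit moderates the spread of each gene by that of the other genes. Some genes were called although their sign differed between libraries.

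Egr proteins are zinc-finger factors of the immediate early class: their genes are transcribed within minutes of calcium entry or growth factor signalling, without new protein synthesis. ERK kinases act on SRF and its Elk partners at CArG boxes in the promoter, and CREB acts at cyclic AMP response elements. The proteins bind GC-rich elements in target genes, and Nab1 and Nab2 bind to Egr proteins and restrain them. In striatum and cortex Egr1 is a widely used marker of recent neuronal activity, Egr2 is best known for its part in hindbrain patterning and peripheral myelination, and Egr3 and Egr4 are activity-induced relatives.

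The promoter sequences show which of these elements lie before the start sites of 2 members. The RefSeq promoter table (GRCm38.p6) matched 2 of the 4 members, Egr2 and Egr4, with 5 start sites for Egr2 and 1 for Egr4. Egr2 occupies chr10:67535475-67542188 on the plus strand and Egr4 chr6:85511121-85513589 on the minus strand (GENCODE M21). Within the 250 bases before each start site, a CArG box was searched on both strands, together with TGACG, the core of a cyclic AMP response element, its full palindrome TGACGTCA (which contains TGACG), and GCGTGGGCG, the element that Egr proteins bind. Each Egr2 site below is the 30 bases around a CArG box, and the Egr4 sequence is the whole stretch before its start, with CArG boxes and TGACG in either orientation in capitals.

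Egr2 CArG box before the start site at 67537566 (chr10:67537484-67537513, plus strand): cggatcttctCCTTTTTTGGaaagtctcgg
Egr2 CArG box before the start site at 67537869 (chr10:67537787-67537816, plus strand): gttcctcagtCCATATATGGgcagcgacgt
Egr4 before the start site at 85513589 (chr6:85513590-85513839, minus strand): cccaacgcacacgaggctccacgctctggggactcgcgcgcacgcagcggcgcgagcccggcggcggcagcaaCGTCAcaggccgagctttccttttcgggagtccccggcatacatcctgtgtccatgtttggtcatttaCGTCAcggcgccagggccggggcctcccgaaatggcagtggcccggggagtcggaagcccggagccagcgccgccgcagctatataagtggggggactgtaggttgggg

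Both Egr2 CArG boxes begin 72 bases before their start site (position -72), and the second box also lies in the windows of the Egr2 starts at 67537870 and 67537930. The Egr2 start at 67537869 also had TGACG at -111 and -55. Egr4 had TGACG at -177 and -109 and no CArG box in this window. No window of either gene held TGACGTCA or GCGTGGGCG. Of 32851 promoters of the same length, 1.47% held a CArG box, 17.8% TGACG, 1.55% TGACGTCA and 0.536% GCGTGGGCG. These are matches of letters, and binding was not measured.

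Cells were assigned to classes from raw counts of marker genes, none of them an Egr gene. Libraries 1, 2 and 3 kept 2306, 5783 and 1834 cells, and pairs of libraries shared between 7 and 22 barcode sequences. Library 1 was the shallowest: its D1 spiny neurons had a median of 1276 UMIs, against 2569 and 3050 in libraries 2 and 3. For the 12 gated classes other than D1 and D2 spiny neurons, all listed markers present in the table were at least 2.16-fold above the mean of the other classes (CPM plus 10). For D1 and D2 spiny neurons 4 of 6 and 4 of 5 markers were at least 2-fold higher, and the lowest stood at 0.739-fold and 1.24-fold. The same markers assigned the cells, so these folds follow from the gate and are no check of the class names. Classes are rebuilt from markers and are not the authors' annotation.

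Egr1 was the most abundant member of the family by UMI count in spiny neurons, the GABAergic projection neurons that make up most of the accumbens. In D1 spiny neurons, which carry the dopamine receptor D1, its level was 447, 514 and 538 CPM (UMIs of a class scaled to the same total in each library) in libraries 1 to 3, a mean of 500 ± 47.2 (SD, n = 3 libraries). In D2 spiny neurons, which carry the D2 receptor, it was 427, 553 and 724 CPM, a mean of 568 ± 149. The ranges of both classes overlapped, and library 3 was highest in each.

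Egr1 was at a similar level in glutamatergic neurons, which release an excitatory transmitter. It had 440, 608 and 638 CPM there, a mean of 562 ± 107, inside the range of D2 spiny neurons. Interneurons had lower means and a wider spread. Sst-Npy interneurons, the somatostatin and neuropeptide Y class, had 0, 131 and 522 CPM, and Pvalb interneurons, the fast-spiking class, had 0, 101 and 230 CPM. Their zeros came from 9 and 10 cells of library 1, where 3 UMIs, the limit that a count of 0 allows, correspond to 225 and 137 CPM.

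Egr4 followed the same neurons at a lower level. It reached 119, 132 and 178 CPM in D1 spiny neurons (mean 143 ± 30.8, SD, n = 3) and 71.9, 134 and 249 CPM in D2 spiny neurons (mean 152 ± 90.1). Glutamatergic neurons had 67.7, 79.0 and 98.7 CPM (mean 81.8 ± 15.7), below all 3 libraries of D1 spiny neurons. Sst-Npy interneurons had 0, 23.8 and 56.8 CPM and Pvalb interneurons 0, 33.7 and 0 CPM, from 9 and 5 UMIs in all. In a 3′ tag assay each molecule is counted near its end, but the capture of different genes can differ, so the lower count of Egr4 than of Egr1 was not read as fewer molecules.

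Egr2 was sparse everywhere. D1 spiny neurons had 12.8, 16.6 and 14.2 CPM, D2 spiny neurons 8.46, 15.5 and 28.9 CPM, and glutamatergic neurons 11.3, 9.06 and 35.7 CPM. These rest on 85, 56 and 29 UMIs over all libraries, and all 3 ranges overlapped. Of the interneurons, Egr2 had 2 UMIs in Sst-Npy cells and none in 48 Pvalb cells, where 0 of 10, 0 of 30 and 0 of 8 cells allow shares of cells with a UMI of up to 30%, 10% and 37.5%. At the Egr2 level of spiny neurons a cell can express the gene without a UMI, so this limits detection at this depth and not expression. The 8 cholinergic interneurons, all from library 2, held 2 Egr1, 1 Egr2 and 2 Egr4 UMIs at a median depth of 11405 UMIs.

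**Figure D1:**
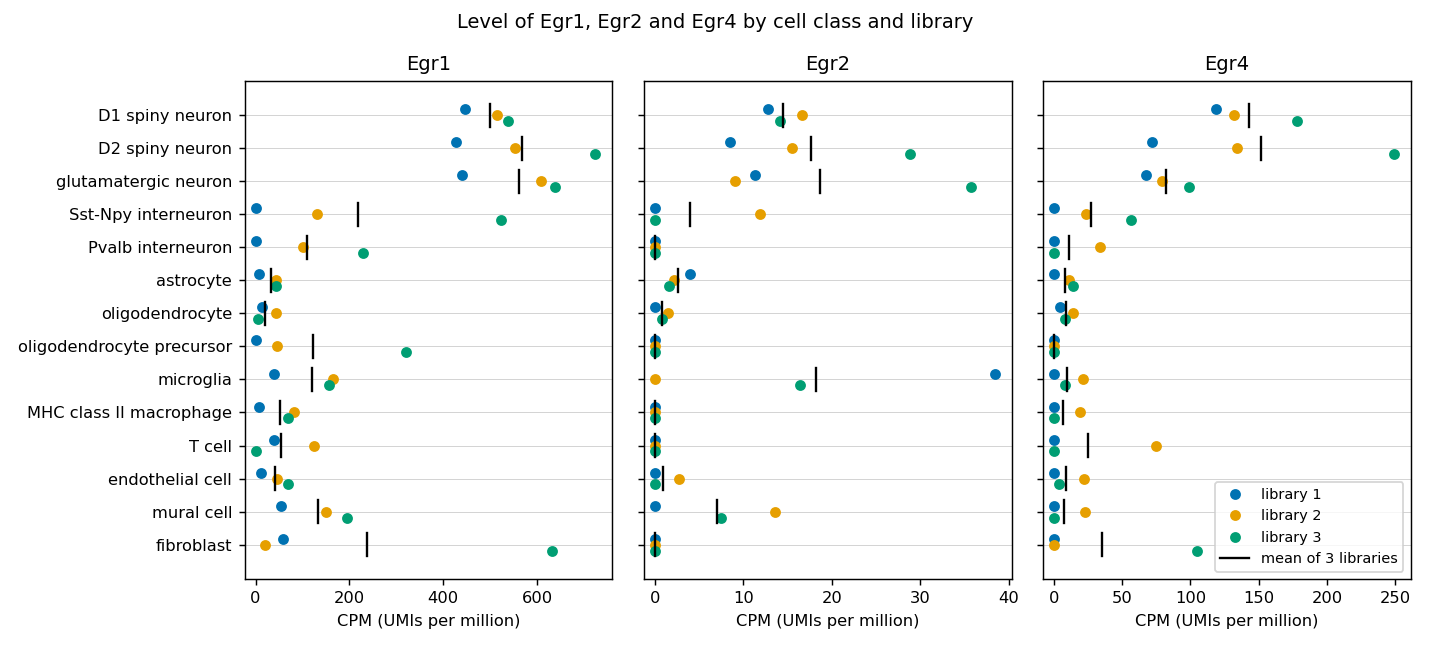
Level of Egr1, Egr2 and Egr4 in CPM (x axis, linear, a separate scale in each panel) for 14 cell classes (y axis); each point is 1 library and the black line is the mean of 3 libraries. D1 spiny, D2 spiny and glutamatergic neurons hold the highest mean Egr1 and Egr4, and the 632 CPM of Egr1 in fibroblasts of library 3 comes from 5 cells.

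Ordered by mean CPM over 14 classes, Egr1 ran from D2 spiny neurons (568) through glutamatergic (562) and D1 spiny neurons (500) to astrocytes (31.9) and oligodendrocytes (20.5). No 2 neighbours in that order had separate library ranges. For Egr4 the order began with D2 spiny (152), D1 spiny (143) and glutamatergic neurons (81.8), and the step from D1 spiny to glutamatergic neurons was the only 1 between neighbours without overlap. For Egr2 no neighbours were separated, and its 18.3 CPM in microglia came from 5 UMIs in 2 cells.

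The share of cells with at least 1 UMI depends on depth, so it is given for all UMIs and again with each cell thinned to 1000 UMIs, as the share expected to keep a UMI. An Egr1 UMI was found in 36.7%, 63.9% and 68.4% of D1 spiny neurons (exact 95% interval in library 1 29.6% to 44.2%) and in 38.5%, 63.1% and 74.2% of D2 spiny neurons. In glutamatergic neurons, whose median depth was 2190, 4933 and 8228 UMIs, the shares were 44.7%, 84.4% and 93.2%. Intervals cover counting error only.

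Thinning brought the classes together. Expected Egr1 shares were then 29.1%, 37.6% and 38.8% in D1 spiny neurons, 35.9%, 37.3% and 48.8% in D2 spiny neurons, and 32.9%, 43.4% and 46.7% in glutamatergic neurons. Thinning left out 59, 38 and 9 D1, 61, 14 and 10 D2, and 3, 0 and 0 glutamatergic cells that were shallower. Thus the mean Egr1 share over D1 and D2 spiny neurons went from 57.4% to 37.7%, and that of glutamatergic neurons from 74.1% to 41%. For Egr4 the unthinned shares in spiny neurons of both kinds were 10.6%, 23.3% and 39.3%, and 8.73%, 10.4% and 19.2% after thinning. In glutamatergic neurons Egr4 shares of 13.2%, 27.4% and 39.7% became 6.1%, 7.05% and 9.6%, below spiny neurons in each library.

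**Figure D2:**
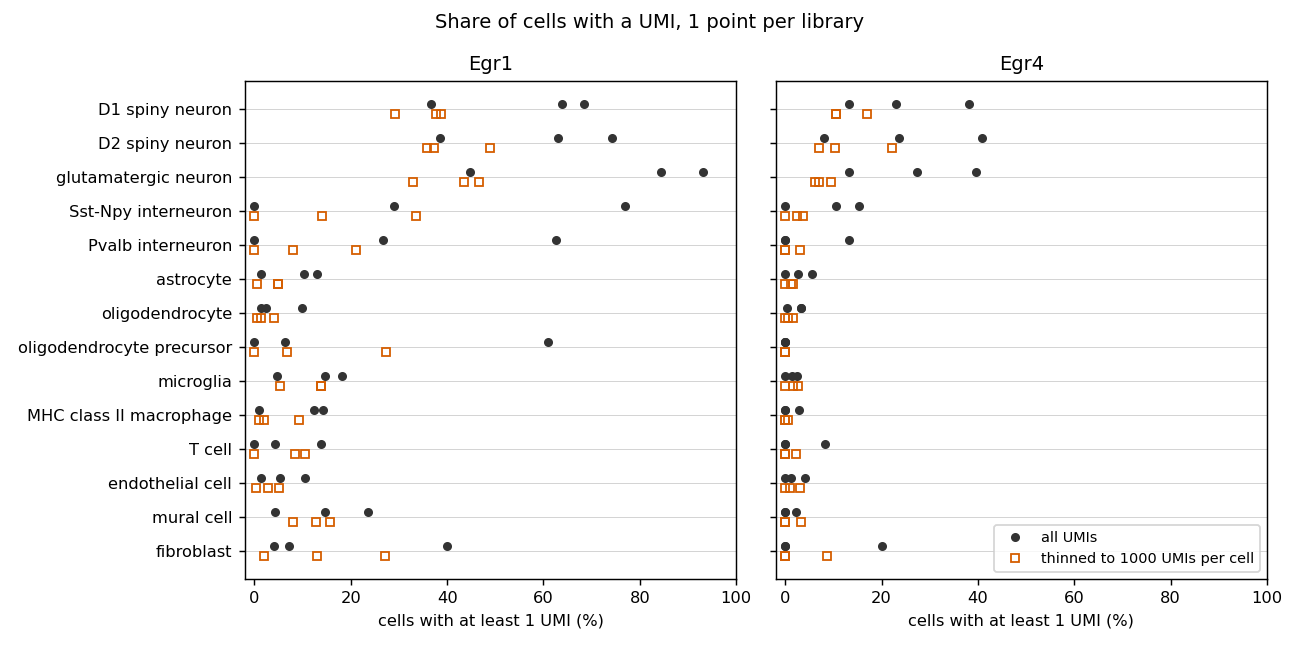
Share of cells with at least 1 UMI of Egr1 (left) or Egr4 (right) in percent (x axis) for 14 classes (y axis); each symbol is 1 library, filled circles with all UMIs and open squares with each cell thinned to 1000 UMIs. After thinning, Egr1 in D1 spiny, D2 spiny and glutamatergic neurons lies between 29.1% and 48.8%.

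Cells of 1 class differed widely in Egr1. In D1 spiny neurons 6.67%, 19.6% and 27.9% of cells had 3 or more Egr1 UMIs, and the 10% of cells with the most Egr1 UMIs held 49.5%, 38.3% and 37.1% of all Egr1 UMIs of their library. In glutamatergic neurons 15.8%, 53.3% and 61.6% had 3 or more, and the top 10% held 38.5%, 30.2% and 26.9%. The highest count in any cell was 16 for Egr1, 11 for Egr4 and 4 for Egr2. Depth per cell differs within a class too, and its part in this spread was not tested.

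The first comparison asked whether the family separates neurons from non-neuronal cells. Counts were summed per library and class and tested by edgeR's quasi-likelihood F test, with the library as block, and p-values were adjusted by Benjamini-Hochberg over all genes tested. Egr1 had 395, 516 and 626 CPM in all neurons and 13.8, 60.1 and 51.2 CPM in all non-neuronal cells. It was higher in neurons by 3.33 on the log2 scale (SE 0.282, adjusted p = 3.91e-05, higher in 3 of 3 libraries). Egr4, at 82.7, 119 and 167 CPM against 1.38, 15.4 and 8.54 CPM, was higher by 3.53 (SE 0.367, adjusted p = 0.000129, 3 of 3). Egr2, at 9.59, 16.4 and 21.2 CPM against 3.45, 2.42 and 1.94 CPM, was higher by 2.31 (SE 0.424, adjusted p = 0.0016, 3 of 3). All 3 tested members were called in this comparison, in which 65.8% of all 13064 genes were called, 4046 of them higher in neurons.

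The genes around the family split in this comparison. Of the 2 corepressors, Nab2 was higher in neurons (log2 fold change 1.88, adjusted p = 0.000209, edgeR) and Nab1 lower (-1.55, adjusted p = 0.00051). Of 15 tested genes of the SRF and ERK route, 10 were higher and 4 lower in neurons, with a median of 1.02 against -0.0563 over all genes. The SRF coactivator Mkl1 was higher by 2.54, whereas Elk3, an SRF partner, was lower (-3.23). Of 23 other immediate early genes 8 were higher and 9 lower. Of all 13064 genes 4046 were higher and 4548 lower, a similar split. Homer1, a postsynaptic scaffold gene, was higher by 3.58, and the vessel-enriched factors Klf2 and Klf4 were lower (-4.79 and -4.35).

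The second question was whether the direct and indirect pathway spiny neurons differ. Egr1 was called higher in D2 than in D1 spiny neurons, by 0.228 on the log2 scale (SE 0.0716, adjusted p = 0.0433, edgeR). The CPM values above were higher in D2 neurons of libraries 2 and 3 but lower in library 1. The call was lost under 7 of 11 alternatives, with adjusted p from 0.0107 to 1 over all 11: it was lost without library 2 (0.315, adjusted p = 0.171) and without library 3 (0.105, adjusted p = 0.83). Egr4 (0.168, SE 0.107, adjusted p = 0.622) and Egr2 (0.219, SE 0.265, adjusted p = 0.887) were not called, against 3.75% of 9416 genes called in this comparison.

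The other immediate early genes moved little between spiny classes. Nr4a1, an orphan nuclear receptor, was higher in D2 neurons, with 97.3, 102 and 147 CPM against 85.2, 62.6 and 90.8 CPM (log2 fold change 0.684, adjusted p = 1.45e-05, edgeR, 3 of 3 libraries). The phosphatase gene Dusp1 was also called higher (0.492, adjusted p = 0.0337, higher CPM in 2 of 3 libraries), and the remaining 15 of 17 tested genes of the list were not called. The list's median was 0.108 against 0.00482 over all genes. Neither Nab1 (-0.572, adjusted p = 0.528) nor Nab2 (0.222, adjusted p = 0.618) was called. Among the SRF and ERK genes, Map2k1, the kinase above ERK, was called lower in D2 neurons (-0.275, adjusted p = 0.00859, lower CPM in 2 of 3 libraries).

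Glutamatergic neurons differed from spiny neurons in Egr4 but not detectably in Egr1. Egr4 was lower by 0.809 on the log2 scale (-0.809, SE 0.195, adjusted p = 0.0191, edgeR, lower in 3 of 3 libraries). Egr1 had a log2 fold change of 0.124 (SE 0.17, adjusted p = 0.686) and Egr2 of 0.169 (SE 0.397, adjusted p = 0.82). So 1 of 3 tested members was called, against 18.1% of 9000 genes. The Egr4 call was lost without the block, with DESeq2 (adjusted p = 0.0835), without library 2 (adjusted p = 0.278) and without library 3 (adjusted p = 0.428), while its value stayed between -0.911 and -0.668 over the 10 alternatives.

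Other early genes were called in the opposite direction. Bdnf, a secreted neurotrophin, had 45.1, 184 and 155 CPM in glutamatergic neurons and at most 1.88 CPM in either spiny class (log2 fold change 7.36, adjusted p = 1.96e-05, edgeR). Nr4a2 (5.60, adjusted p = 3.24e-05), Ier2 (2.87, adjusted p = 0.000893), Btg2 (1.81, adjusted p = 0.000862), Fos (1.10, adjusted p = 0.00676) and Ier5 (0.656, adjusted p = 0.0277) were higher as well, and Homer1 was lower (-0.75, adjusted p = 0.0487). That gave 6 higher and 1 lower of 20 tested genes, with a median of 0.335. Nab1, at 33.8, 69.9 and 59.6 CPM against 8.27 to 20.8 CPM in the spiny classes, was higher by 2.32 (adjusted p = 0.000388), and Nab2 was not called (-0.166, adjusted p = 0.743). Of 13 tested SRF and ERK genes none was called.

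Interneurons were few. In Sst-Npy interneurons, tested in libraries 2 and 3 with 38 and 13 cells, Egr4 had a log2 fold change over spiny neurons of -2.16 (SE 0.321, adjusted p = 0.07, edgeR), Egr1 of -1.03 (SE 0.429, adjusted p = 0.3) and Egr2 of -1.15 (SE 1.02, adjusted p = 0.572). None was called, against 1.72% of 9708 genes. With library 1 and its 9 cells added, a choice made after seeing the data, Egr4 was called lower (-2.18, adjusted p = 0.00246) and Egr1 was not (-1.16, adjusted p = 0.0645). In Pvalb interneurons, tested in libraries 1 and 2 with 10 and 30 cells, Egr1 had -2.65 (SE 0.555, adjusted p = 0.177) and Egr4 -2.16 (SE 0.584, adjusted p = 0.182), against 0.0159% of 6280 genes called. With the 8 cells of library 3 added, likewise chosen later, both were called lower (-2.20, adjusted p = 0.00493, and -2.77, adjusted p = 0.00838). The unadjusted p-values of Egr1 and Egr4 in the first Pvalb fit were 0.0159 and 0.0178. In library 1 neither interneuron class had an Egr4 UMI, and the limits there (225 CPM for Sst-Npy and 137 CPM for Pvalb cells) lie above the 95.5 CPM of spiny neurons, so a lower Egr4 level was not detectable in that library.

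**Figure D3:**
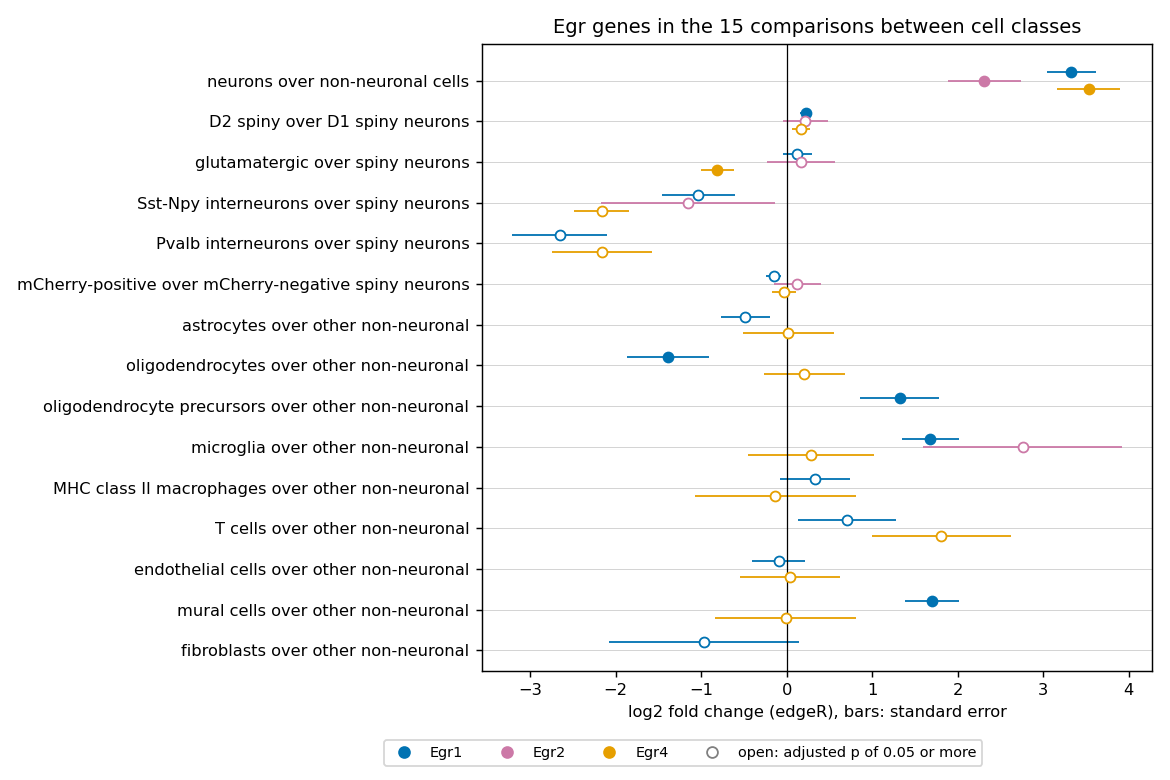
Log2 fold change of Egr1, Egr2 and Egr4 (x axis) in 15 comparisons (y axis), from edgeR on counts summed per library; bars are standard errors, filled symbols have an adjusted p under 0.05, and genes removed by the filter on low counts are not drawn. The largest differences called are those of neurons over non-neuronal cells, at 2.31 to 3.53.

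Spiny neurons with and without a UMI of the FLiCRE reporter did not differ detectably in the family. At least 1 mCherry UMI was found in 6.27%, 21.4% and 12.9% of spiny neurons, and in 1.62%, 9.62% and 5.02% of non-neuronal cells at median depths of 1014, 1594 and 3040 UMIs. At 1000 UMIs per cell the shares were 5.8%, 9.54% and 5.1% against 1.64%, 4.56% and 1.61%. The part of free mCherry RNA in this split was not tested. Egr1 had 449, 482 and 547 CPM in spiny neurons with an mCherry UMI (23, 457 and 69 cells) and 436, 544 and 628 CPM in those without (344, 1681 and 465 cells). The log2 fold change was -0.15 (SE 0.0884, adjusted p = 0.706, edgeR). Egr4 had 120, 143 and 140 CPM against 93.7, 129 and 222 CPM (-0.0295, SE 0.139, adjusted p = 0.97), and Egr2 29.9, 17.2 and 18.7 CPM against 9.14, 15.9 and 20.5 CPM (0.123, SE 0.275, adjusted p = 0.927). Of all 9467 genes 0% were called, with 690 at an unadjusted p under 0.05, and DESeq2 called 0.

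Depth moved with the reporter. The median was 1408, 3215 and 4196 UMIs in cells with an mCherry UMI and 1224, 2509 and 2577 UMIs in the others. The unthinned Egr1 share was higher with the reporter in all 3 libraries (43.5%, 66.5% and 79.7% against 37.2%, 62.9% and 69.7%). At 1000 UMIs it was lower in all 3 (29.1%, 35.6% and 39.4% against 32.9%, 38% and 43.7%). Of 18 tested other immediate early genes none was called between these cells, and their median log2 fold change was -0.0962.

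Within spiny neurons, some other early transcripts were found more often in cells with Egr1. Shares were read in D1 and D2 cells after 1 random thinning to 1000 UMIs, so that depth was equal. Of 24 other immediate early genes, 11 were found in a higher share of cells with Egr1 in all 3 libraries, 1 in a lower share in all 3, and 12 in neither. No such count was made over all genes, so these counts, and those in glutamatergic neurons below, have no background. Some of the 11 rest on few cells: in library 1 Btg2 was found in 2 cells with and 2 without Egr1, and Nr4a3 in 1 and 0. Egr4 was found in 17.4% ± 7.57 of cells that kept an Egr1 UMI and in 10.1% ± 4.42 of those that did not (SD, n = 3 libraries), higher in 3 of 3 libraries. Junb, an AP-1 subunit, was found in 29.4% ± 4.24 and 17.8% ± 4.37, Nr4a1 in 12.6% ± 4.79 and 6.32% ± 1.75, and Arc, a synaptic immediate early gene, in 11.3% ± 4.12 and 6.56% ± 2.75. Each was higher in all 3 libraries. Fos (5.76% against 2.91%) and Homer1 (29.7% against 23.7%) were too.

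Jund was found in 38% against 37.4% of the cells, Jun in 5.17% against 5.22%, and Ier5 in 11.4% against 12.8%, lower in all 3 libraries. Snap25, a synaptic gene of all neurons, was found in 79.8% against 78.9%. It is a gate marker of neurons and was found in most cells, so it is no control for genes of low count. Egr2 (1.92% against 1.20%) was higher in 2 of 3 libraries with 22 cells holding both. In glutamatergic neurons, with only 11, 60 and 30 cells that kept an Egr1 UMI, 5 of the 24 genes were higher in all 3 libraries and 0 lower. Ier5 was among the 5 there (32.7% ± 3.3 against 13.4% ± 2.81), unlike in spiny neurons. Egr4 was higher with Egr1 in library 1 (18.2% against 0%) and lower in libraries 2 and 3 (5% against 9.33% and 13.3% against 16.3%), on 9 cells with both. These shares are descriptions, since cells of 1 library are not replicates.

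**Figure D4:**
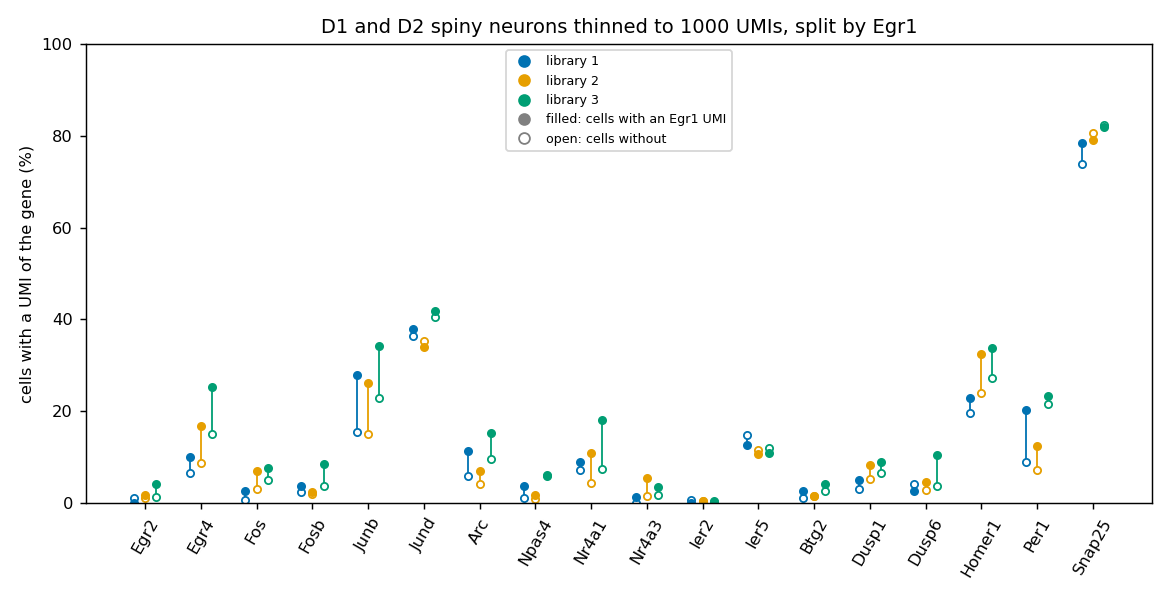
Share of D1 and D2 spiny neurons with a UMI of each gene in percent (y axis) after thinning to 1000 UMIs per cell, for 18 genes (x axis); filled symbols are cells with an Egr1 UMI, open symbols cells without, and colours mark the 3 libraries. Egr4, Junb, Nr4a1 and Arc are higher in cells with Egr1 in every library, while Snap25, a gate marker of neurons, differs little (79.8% against 78.9% on average).

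In non-neuronal cells the Egr counts were low, and RNA from lysed neurons can enter any droplet. Markers of spiny neurons in each class, as a percentage of their level in spiny neurons, are set beside Egr1 as a rough guide to that signal. They do not follow all neuronal Egr1: glutamatergic neurons had 105% of the spiny Egr1 level and 12.6% of the summed markers. Single markers also differ by class, as Bcl11b stood at 25.8% in T cells. The part of free RNA in the Egr1 of any non-neuronal class was not tested. In oligodendrocytes, the myelinating cells, Egr1 was found in 1.41%, 9.78% and 2.30% of cells at median depths of 947, 2139 and 4116 UMIs. Its level was 12.9, 43.0 and 5.56 CPM, which is 2.95%, 8.15% and 0.905% of that in spiny neurons of the same library. The 8 spiny markers summed to 1.82%, 7.26% and 1.59%. The Egr1 percentages, from 6, 57 and 7 UMIs, were a little above those of the markers in libraries 1 and 2 and below in library 3. With so few UMIs, the difference from the markers was not tested. Egr4 there stood at 4.50%, 10.2% and 3.83%.

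Oligodendrocytes were lower in Egr1 than the other non-neuronal types combined. The log2 fold change was -1.39 (SE 0.48, adjusted p = 0.0296, edgeR, 3 of 3 libraries), where 50.2% of 10852 genes were called. It was -0.379 without library 3 (adjusted p = 0.391), -2.70 without library 2 (adjusted p = 0.024), and not called with DESeq2 (adjusted p = 0.0854), among cells of at least 1000 UMIs (adjusted p = 0.0734) or with doublets kept (adjusted p = 0.0691). Egr4 was not called (0.206, adjusted p = 0.75). Nab2 was lower by 2.77 (-2.77, adjusted p = 0.000428), as were 17 of 21 tested early genes, while 2 were higher.

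Astrocytes, which support synapses and take up transmitter, had 8.03, 43.5 and 44.2 CPM of Egr1, or 1.84%, 8.24% and 7.20% of spiny neurons. The spiny markers stood at 1.81%, 10.5% and 4.46%. Their log2 fold change over the other types was -0.484 (SE 0.288, adjusted p = 0.189, edgeR), with 44% of 9952 genes called, and that of Egr4 was 0.0204 (SE 0.534, adjusted p = 0.981). In astrocytes the Egr1 percentage was level with that of the spiny markers in library 1, above it in library 3 and below it in library 2. These rest on 4, 40 and 28 Egr1 UMIs in libraries 1 to 3, and the difference from the markers was not tested.

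Microglia, the resident macrophages of the brain, stood further above the spiny markers than oligodendrocytes and astrocytes did. Egr1 above these markers was not particular to microglia, as the types below show. Egr1 had 38.4, 164 and 156 CPM (3, 31 and 19 UMIs), found in 4.76%, 14.7% and 18.1% of cells at median depths of 999, 915 and 1097 UMIs. This is 8.79%, 31.1% and 25.4% of spiny neurons, where the summed spiny markers stood at 1.37%, 13.3% and 2.12%. Over the other non-neuronal types Egr1 was higher by 1.68 (SE 0.33, adjusted p = 0.00253, edgeR, 3 of 3 libraries), with 30% of 9199 genes called and a median of -0.272 over all genes. Without library 2 or 3 the value was 1.81 or 1.62 and not called (adjusted p = 0.117 and 0.116). The other types were summed by counts, here and for mural cells, so oligodendrocytes and astrocytes, the lowest in mean Egr1, weigh most. In library 2 they held 1324140 and 919986 of 3309594 non-neuronal UMIs. By mean CPM of Egr1, mural cells (133), precursors (122) and fibroblasts (237, from 8 UMIs) were not below microglia (119).

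Other early genes were also high in microglia. Of 18 tested, 11 were higher and 0 lower, with a median of 2.03. This was not particular to microglia: in MHC class II macrophages, where Egr1 was not called, 13 of 20 were higher and 0 lower, with a median of 1.78. Junb had 1397, 933 and 1901 CPM (log2 fold change 2.91, adjusted p = 1.18e-05), against 244 to 413 CPM in the spiny classes. The stress-responsive factor Atf3 (3.16, adjusted p = 0.000612) and Dusp6, an ERK phosphatase gene (2.77, adjusted p = 6.76e-05), were higher too. Hspa1a, a heat-shock gene, was higher by 2.53 (adjusted p = 0.000641), 2 of 7 heat-shock genes were higher and 1 lower, and their summed level ranged from 1115 to 3638 CPM in microglia and from 1538 to 2771 CPM in oligodendrocytes. The part of dissociation stress in these levels was not tested. Egr2 (2.76, SE 1.16, adjusted p = 0.0946) and Egr4 (0.284, adjusted p = 0.817) were not called.

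Mural cells, the pericytes and smooth muscle of vessels, were also called higher in Egr1. They had 54.2, 150 and 195 CPM (2, 33 and 26 UMIs), found in 4.35%, 14.6% and 23.5% of cells at 662, 1036 and 1658 UMIs. That is 12.4%, 28.4% and 31.8% of spiny neurons, against 1.16%, 10.7% and 2.32% for the spiny markers. The log2 fold change was 1.70 (SE 0.32, adjusted p = 0.0016, edgeR, 3 of 3 libraries), where 21.1% of 9616 genes were called and the median over all genes was -0.178. Alternatives gave 1.47 to 1.94, called in 7 of 10 and lost without library 2, without library 3 and among cells of at least 1000 UMIs. Both corepressors were higher in mural cells, Nab1 with 163, 200 and 150 CPM (2.06, adjusted p = 0.000228) and Nab2 with 54.2, 45.5 and 67.5 CPM (1.91, adjusted p = 0.00556). Of 14 tested SRF and ERK genes 1 was higher, Srf (1.64, adjusted p = 0.0415), and 1 lower, Mapk3 (-1.18, adjusted p = 0.0279), with a median of -0.116. Hspb1 (2.84, adjusted p = 2.07e-05) and Hspa1a (2.11, adjusted p = 0.000814) were higher beside them.

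Oligodendrocyte precursors rested on 1 library. Their Egr1 was 0, 45.8 and 321 CPM, found in 0 of 11, 2 of 32 and 14 of 23 cells at median depths of 584, 1166 and 2596 UMIs. The test called Egr1 higher than in the other non-neuronal types (1.32, SE 0.466, adjusted p = 0.0347, edgeR), although CPM was higher in only 1 of 3 libraries, with 14.8% of 9545 genes called and a median of -0.399. Without library 3 the value was -1.02 (adjusted p = 0.682). In library 3 Egr1 stood at 52.4% of spiny neurons and the spiny markers at 4.51%. The 8 general neuron markers summed to 849, 985 and 1006 CPM in precursors, a mean of 14.3% of the spiny level. That mean was 5.27% in astrocytes, 4.25% in oligodendrocytes and 5.36% in microglia. Egr2 and Egr4 had no UMI in any of these cells, where the limit of 3 UMIs corresponds to 283, 68.7 and 41.9 CPM. These limits lie above the Egr2 of spiny neurons (10.6, 16.3 and 20.2 CPM). They also lie above the Egr4 of all non-neuronal cells (1.38, 15.4 and 8.54 CPM), so such levels were not detectable here. Of 17 early genes 6 were lower and none higher.

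The remaining types gave no call of an Egr gene. MHC class II macrophages had 7.65, 82.2 and 68.6 CPM of Egr1 (0.33, SE 0.409, adjusted p = 0.596, edgeR, 29% of 9250 genes called). Endothelial cells had 10.7, 46.5 and 69.2 CPM (-0.0939, SE 0.309, adjusted p = 0.84, 40.2% of 9392 genes called). T cells, tested in 2 libraries, had 40.2, 125 and 0 CPM from 6 UMIs (0.703, SE 0.574, adjusted p = 0.495, 1.83% of 8023 genes called). Fibroblasts, also in 2 libraries, had 58.9, 20.1 and 632 CPM from 8 UMIs (-0.962, SE 1.11, adjusted p = 0.754, with 0% of 8285 genes called and 993 at an unadjusted p under 0.05; DESeq2 called 309). With the 5 cells of library 3 the fibroblast value turned to 0.673 and was not called. As a percentage of spiny neurons, Egr1 stood at 1.75%, 15.6% and 11.2% in macrophages, against 1.56%, 9% and 1.77% for the spiny markers. In endothelial cells it was 2.46%, 8.81% and 11.3%, against 0.922%, 8.04% and 1.49%. Both types were thus above the markers in each library. T cells of library 3 (0% against 3.81%) and fibroblasts of library 2 (3.81% against 9.97%) were below them. The differences were not tested. The median log2 fold change over all genes was -0.327 in these macrophages, -0.0829 in endothelial cells, -0.918 in T cells and -0.543 in fibroblasts. Egr4 was not called in any of the 7 non-neuronal types in which it passed the filter on low counts, and did not pass it in precursors and fibroblasts.

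Cells outside these classes also carried the family. Neurons that met no single subclass are part of all neurons in the first comparison. Spiny neurons assigned to neither D1 nor D2 (142, 606 and 130 cells) had 399, 521 and 716 CPM of Egr1 and 89.3, 125 and 177 CPM of Egr4. The remaining neurons (97, 319 and 91 cells) had 287, 543 and 699 CPM of Egr1 and 53.2, 78.2 and 99.2 CPM of Egr4. The ungated cells, 533, 857 and 228 per library, had 177, 190 and 220 CPM of Egr1 and 25.6, 41.6 and 31.4 CPM of Egr4, between neurons and non-neuronal cells.

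Egr3 could not be described. It had 1 UMI in library 2 and 1 in library 3. The gene lies at chr14:70077203-70082614 on the plus strand (GENCODE M21), and the 3′ ends of its 4 transcript models differ by up to 3311 bases. A 3′ assay counts reads near those ends, and the annotation release behind the counts is not given in the sources used here, so the count was not read as a level of expression. Some models of Egr2 also end early, by up to 3808 bases, whereas those of Egr1 and Egr4 end within 28 and 0 bases of the gene's end.

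Over the 14 classes the profiles of the members were correlated. Pearson's r of mean log2 (CPM + 10) was 0.878 between Egr1 and Egr4, 0.868 between Egr1 and Egr2, and 0.788 between Egr2 and Egr4. The classes share libraries and differ in depth, so r is a description. No spread of r over all genes is given as a background. Each gene named below had a higher r with its member than any other member had, so r does not single out the family. The values for Egr2 rest on little: its class means were at most 18.7 CPM, under the 20 CPM asked of the genes compared with it, 5 classes had no UMI, and its level in microglia came from 2 cells. Among 12386 other genes that were no gate markers, those most like Egr1 were Baiap2 (0.923), Ldb2 (0.919), Wscd2 (0.914), Plk5 (0.913) and Cpne6 (0.912). Those most like Egr4 were Chrm1, the muscarinic receptor M1 (0.974), Fras1 (0.967), Hrk (0.965), Tenm4 (0.964) and Acvr1c (0.963). For Egr2 they were Atp13a1 (0.916), Rgs11 (0.904), the corepressor Nab2 (0.903), Klf16 (0.891) and Fxyd2 (0.888).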

How the data were processed

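Single-cell libraries were made with the 10x Genomics 3′ v2 kit, per the labels. The authors deposited raw UMI counts per gene and cell as 1 pooled matrix, written by Cell Ranger 3.0.0 per the file headers (Cell Ranger 3.0 and mm10 per the submitters' processing notes), with 28001 features and 11625 cells. The annotation release is not given in the sources used here.

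Retained cells had 300 or more genes and no more than 20% of UMIs from mitochondrial genes. Scrublet's automatic threshold marked 54, 10 and 10 cells, so the cells of highest score were dropped, 0.8% for every 1000 cells in the library (44, 296 and 28 cells; scanpy 1.11.5). A class needed 3 of its markers (2 for T cells) and at least 2 times as many as any other class. Neurons were then split by subclass markers, with at least 3 spiny or glutamatergic markers, 8 UMIs for Sst-Npy, 2 markers and 4 UMIs for Pvalb, and 2 D1 or D2 markers.

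Counts were summed per library and class, at least 10 cells per arm, and tested with edgeR 4.0.16 (TMM, filterByExpr, robust prior, legacy = FALSE, library as block) at an adjusted p of 0.05. Standard errors are the absolute log2 fold change over the square root of F. Pairing by library is given by the design: each library supplies both sums. The main fits had 2 residual degrees of freedom with 3 libraries and 1 with 2 libraries. The fit was tested on simulated data. Alternatives were DESeq2 1.42.0, no filter on low counts, the default prior, no block, each library left out, cells of at least 1000 UMIs, a gate with 1 more marker, no doublet removal and, for D1 and D2, receptors alone. Arms of 5 cells were added after seeing the data.

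Named were the 4 members, the 5 genes most like each by Pearson's r (at least 20 CPM in 1 class), and up to 4 genes per list with the largest called change of 1 sign in all libraries. Further list genes with a call, and single genes given for contrast, were named after their values were seen. The members and lists were chosen with earlier results of these data known. 1 gene of the SRF and ERK list is not reported here by name.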

Additional observations from a re-analysis of the deposited data

How the results depend on the processing

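The higher Egr1, Egr2 and Egr4 of neurons over non-neuronal cells was called under all 10 alternatives, at 3.02 to 3.63, 1.86 to 2.72 and 3.23 to 4.20 on the log2 scale. Elsewhere the number of members called moved. In D2 over D1 spiny neurons it fell from 1 to 0 with DESeq2, with no filter on low counts, with no replicate block, with the stricter gate and with the receptor gate, and ranged from 0 to 1 when a library was left out. In glutamatergic over spiny neurons it fell from 1 to 0 with DESeq2 and with no replicate block (Egr4 -0.747, adjusted p = 0.178), with a range of 0 to 1 over libraries left out. Sst-Npy interneurons went from 0 to 1 with DESeq2, with no replicate block and with arms of 5 cells, and to 2 with the default prior. Pvalb interneurons went from 0 to 2 with the default prior and with arms of 5 cells. Oligodendrocytes went from 1 to 0 with DESeq2, with no replicate block, at 1000 UMIs or more and with doublets kept (0 to 1 with a library left out). Precursors went from 1 to 0 with DESeq2, no filter, the default prior, no replicate block, 1000 UMIs or more, the stricter gate and each library left out. Microglia went from 1 to 2 with DESeq2 and the default prior, which also called Egr2, and mural cells from 1 to 0 at 1000 UMIs or more. Both ranged from 0 to 1 with a library left out. The cause was not tested, beyond the fewer cells or libraries that some settings leave.

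Direction changed only for values with no call, except Egr1 in precursors (-1.02 to 2.21 with a library left out). With a library left out, D2 over D1 gave -0.0962 to 0.251 for Egr2 and -0.0256 to 0.324 for Egr4. Egr4 ranged from -0.587 to 0.181 with the reporter (0.0409 with the stricter gate), from -0.713 to 0.102 in astrocytes, from 0.0288 to 0.293 in macrophages and from 0.0405 to 0.549 in mural cells, and Egr1 from -0.538 to 0.226 in endothelial cells. In astrocytes Egr4 was -0.114 with DESeq2, -0.0392 with no filter, -0.0423 with the stricter gate and -0.0346 with doublets kept. In oligodendrocytes it was -0.00211 at 1000 UMIs or more, and in endothelial cells -0.31 with DESeq2 and -0.00524 with no filter. In mural cells it was 0.0438 with the default prior, 0.369 at 1000 UMIs or more, 0.0568 with the stricter gate and 0.16 with doublets kept. Fibroblast Egr1 was 0.673 with arms of 5 cells.

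Thinning moved the mean Egr1 share to 37.7% in spiny and 41.0% in glutamatergic neurons, and Egr4 in the latter to 7.59%. No fit could be made for Sst-Npy interneurons without library 2 or 3, for Pvalb interneurons without library 1 or 2 or with the stricter gate, for T cells without library 1 or 2, or for fibroblasts without library 1 or 2 or at 1000 UMIs or more. Depth limits Egr2 and all members in classes of under 50 cells.

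The number of all genes called also moved by over 1.5 times in some fits. In D2 over D1 spiny neurons it was 353 and became 71 with DESeq2, 231 with no filter, 25 with no replicate block and 102 with the stricter gate. In glutamatergic over spiny neurons 1632 became 1080 with DESeq2 and 965 with no replicate block. With the reporter 0 became 18 with no filter, 16 with the default prior, 61 with the stricter gate and 2 with doublets kept. In precursors 1412 became 665 with DESeq2 and 0 at 1000 UMIs or more and with the stricter gate, and in mural cells 2032 became 497 at 1000 UMIs or more. Fits on 2 libraries moved most: 167 became 2 (stricter gate) to 1244 (default prior) in Sst-Npy interneurons, 1 became 0 (doublets kept) to 1125 (arms of 5 cells) in Pvalb interneurons, 147 became 46 (stricter gate) to 1570 (arms of 5 cells) in T cells, and 0 became as many as 738 (arms of 5 cells) in fibroblasts.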
